A study of Rattus norvegicus with 172 samples.

Results

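The segment of rat spinal cord lying just rostral to a complete, untreated transection was compared between day 10 and day 3 after the operation, on 3 arrays a day. These 6 arrays, chosen by their labels alone (lesion control, rostral, the day), are 6 of the 172 in the series. The animals were female Wistar rats of 2 months and 250 to 300 g. In all lesioned rats the cord was cut through at T7-8 and a 5 mm length was taken out. Lesion control rats received nothing in the gap, while other rats received a tube of chitosan, a polymer made from crustacean shell, either empty or holding chitosan loaded with the neurotrophin NT-3. Each array holds RNA pooled from 4 animals, taken from 5 mm of cord together with its dura and meninges, and the 3 arrays of a group are independent pools per the labels. The values set beside these 6 arrays come from the caudal segment of the same treatment and days (6 arrays), the rostral segment of NT-3 tube rats (6 arrays) and of empty tube rats (5 arrays, 2 of them on day 10), and normal cord without a lesion (3 arrays). The labels do not say whether a rostral and a caudal pool came from the same rats. In bulk tissue of this kind, fewer cells of a type and less RNA per cell cannot be told apart.

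A cut spinal cord passes through overlapping phases. Early on, damaged cells and glia release chemokines that draw in neutrophils and monocytes, astrocytes become reactive, and microglia, vessel wall cells, fibroblasts and meningeal cells divide. Later, macrophages loaded with myelin debris fill the lesion edge, and fibroblasts lay down a collagen scar that astrocytes wall off.

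All values are log2 intensities, so that 1 unit is a factor of 2 in intensity, and each gene is read by 1 probe set. Among these 6 arrays, day 10 array 3 correlated least with its own group (mean r = 0.9874, against 0.9905 to 0.9932 for the other 5) and had the lowest median over genes, 8.12 against 8.28 to 8.37. Day 3 array 1 (0.9905) was the lowest of its day. No pair of the 6 was a duplicate, the highest correlation being 0.9969. Cord markers were present on both days: neurofilament light chain Nefl stood at 13.05 ± 0.10 (SD, n = 3) on day 3 and 12.81 ± 0.32 on day 10, myelin basic protein Mbp at 14.64 ± 0.08 and 14.62 ± 0.05, and the astrocyte filament Gfap at 14.18 ± 0.10 and 14.16 ± 0.03. Skeletal muscle markers stayed low, with creatine kinase Ckm at 4.73 ± 0.15 and 4.71 ± 0.17 and no call among the 14 muscle genes tested (limma; none at an unadjusted p under 0.05 either). Red blood cell genes moved with day 10 array 3: the mean of 4 such genes over normal cord was 1.67 there and 0.19 to 1.04 on the other 5 arrays. The neutrophil genes S100a8 and S100a9 varied between pools rather than days, with S100a8 at 7.14, 9.50 and 9.36 on day 3 and 9.99, 10.60 and 7.83 on day 10. The part of these in the results was not tested.

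From day 3 to day 10 genes of cell division fell together. The antioxidant enzyme Gpx2 and the monocyte chemokines Ccl2 and Ccl7 were among the other large falls, and the elastic fibre glycoprotein Mfap4, the proteases Mmp12 and Mmp7 and the complement component C3 were among the large rises. Of 11553 genes tested, 506 rose (4.38%) and 1263 fell (10.9%), of which 66 (0.571%) and 120 (1.04%) by at least 2-fold (limma, adjusted p under 0.05). In 987 genes (8.54%) every day 10 array lay above every day 3 array, and in 1999 (17.3%) below. The median change of all genes was -0.05, and 28.6% of the calls were rises. After a further quantile normalization the median was 0.00, with 720 rises and 929 falls, so that rises made up 43.7% of calls. Leaving out day 3 array 2 gave 330 rises and 703 falls, and leaving out day 10 array 3 gave 492 and 756. The day 3 segment was already far from normal cord, with 3450 genes higher (29.9%) and 3399 lower (29.4%), and on day 10 the counts were 2922 (25.3%) and 3669 (31.8%).

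**Figure D1:**
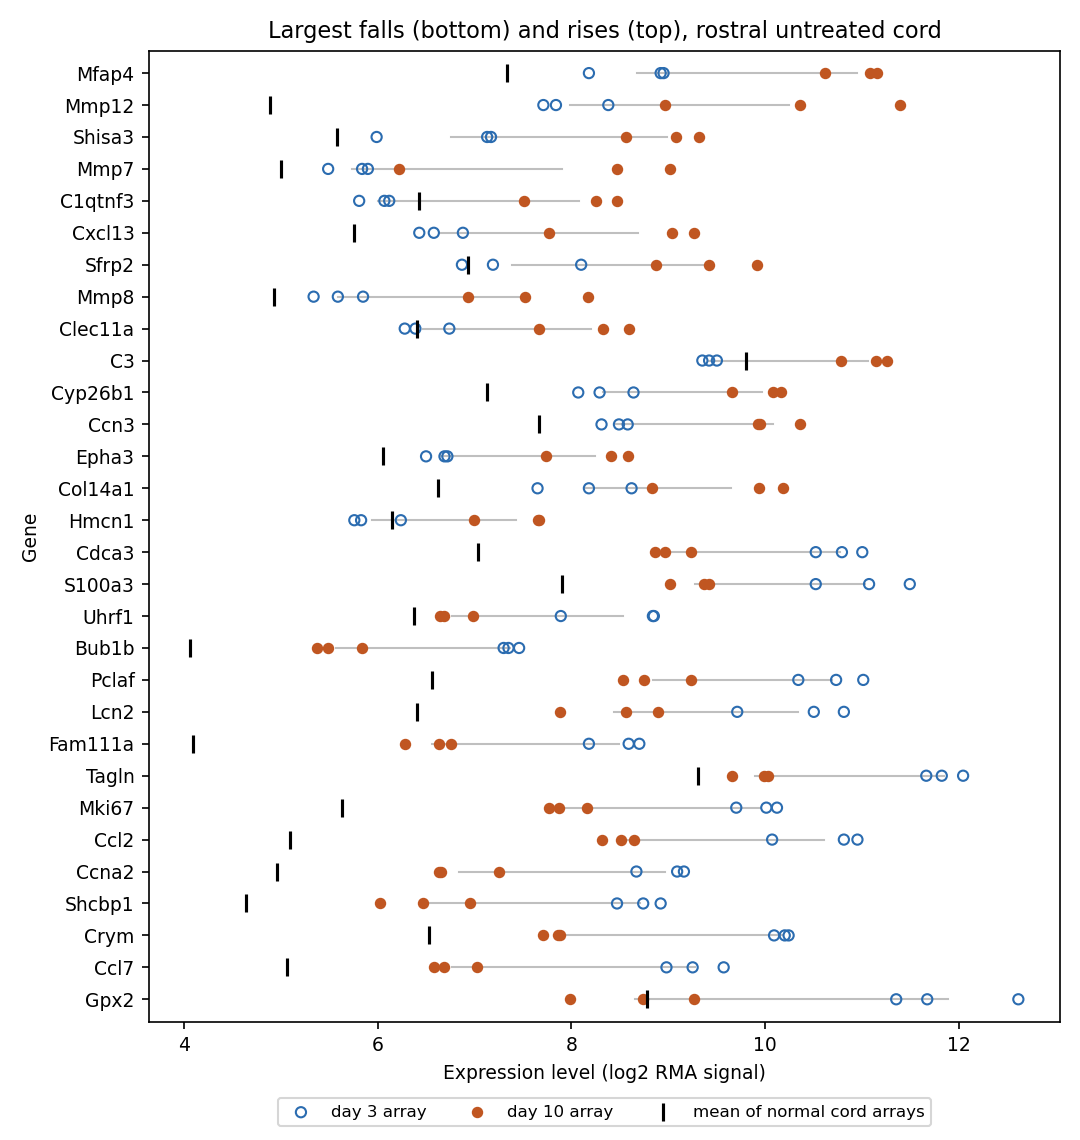
Log2 intensity on each of the 3 day 3 arrays (open blue) and 3 day 10 arrays (filled orange) for 15 genes that rose most and 15 that fell most, with the mean of normal cord as a tick. Mfap4 lies between 8.18 and 8.95 on day 3 and between 10.62 and 11.15 on day 10, and Gpx2 between 11.35 and 12.61 and then between 7.99 and 9.26.

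Cell division genes fell together. Of 30 genes of the G2 phase and mitosis, 29 fell and none rose, with a median change of -1.32 beside -0.05 for all genes, the kinase Aurkb alone was not called, and for all 30 the day 10 arrays lay below the day 3 arrays. Of 23 genes of the G1/S transition and DNA replication, 21 fell and none rose, with a median of -0.81. The fall did not reach the level of normal cord: the mean of the G2 and mitosis genes over normal cord was 2.74, 2.90 and 2.59 on the day 3 arrays and 1.24, 1.51 and 1.40 on the day 10 arrays. With any of the 6 arrays left out, 29 of the mitotic genes and 21 or 22 of the replication genes still fell.

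Because these genes moved as a block, the 250 bases before their RefSeq gene starts (rat assembly GRCr8) were read for letters that are known in promoters of dividing cells. On either strand, TTTGAA, a word of the cell cycle genes homology region read by the MuvB complex, was in 10 of 26 windows of the mitotic genes (38.5%), against 961 of 9613 windows of all tested genes (10%). The CCAAT word, read by NF-Y, was in 19 of the 26 (73.1%) against 3408 (35.5%). The words TTTGGCGC, TTTCGCGC and TTTCCCGC, forms of the E2F site, were in 6 of 19 windows of the replication genes (31.6%), 1 of the 26 mitotic windows (3.85%) and 255 of all windows (2.65%). The promoters of 5 genes are given as examples, picked because they hold these words. The mitotic ones are the largest called falls among genes with both TTTGAA and CCAAT. The replication ones are the largest called falls among genes with an E2F word. Each promoter is written 5' to 3' on the gene's strand and ends just before the gene start. In the mitotic genes capitals mark TTTGAA and CCAAT on either strand, and in Mki67 the downstream TTTGAA shares its last letter with a CCAAT word on the opposite strand.
Mki67, chr1:199952594-199952843, minus strand: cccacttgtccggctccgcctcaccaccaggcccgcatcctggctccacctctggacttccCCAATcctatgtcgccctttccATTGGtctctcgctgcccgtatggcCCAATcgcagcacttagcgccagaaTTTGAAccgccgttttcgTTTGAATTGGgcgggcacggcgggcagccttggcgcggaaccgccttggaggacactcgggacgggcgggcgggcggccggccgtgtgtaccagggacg
Cdk1, chr20:19265043-19265292, plus strand: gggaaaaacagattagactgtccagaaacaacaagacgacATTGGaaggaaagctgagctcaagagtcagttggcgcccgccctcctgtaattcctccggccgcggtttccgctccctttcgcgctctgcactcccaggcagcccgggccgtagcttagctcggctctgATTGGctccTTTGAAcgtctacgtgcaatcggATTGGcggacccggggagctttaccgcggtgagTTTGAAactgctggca
Cks2, chr17:13727520-13727669, minus strand: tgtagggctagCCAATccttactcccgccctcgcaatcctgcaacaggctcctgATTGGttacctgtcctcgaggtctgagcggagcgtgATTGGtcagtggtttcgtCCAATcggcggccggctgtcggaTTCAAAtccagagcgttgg
In the replication genes capitals mark the E2F words, which here run into a match on the opposite strand.
Gins1, chr3:160184770-160184919, plus strand: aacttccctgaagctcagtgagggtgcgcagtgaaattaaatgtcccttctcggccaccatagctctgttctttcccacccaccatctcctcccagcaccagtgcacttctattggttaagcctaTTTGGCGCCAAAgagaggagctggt
Mcm6, chr13:42404353-42404502, minus strand: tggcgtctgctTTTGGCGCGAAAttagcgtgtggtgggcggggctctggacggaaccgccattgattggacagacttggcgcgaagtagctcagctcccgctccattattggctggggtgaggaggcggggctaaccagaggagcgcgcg
These matches are a description of the letters, and no binding was measured.

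The proliferation antigen Mki67 read 10.01, 10.12 and 9.70 on day 3 and 7.77, 8.16 and 7.87 on day 10. Every day 10 array lay below every day 3 array, and the fall was -2.01 ± 0.32 (SE), 4.03-fold (adjusted p = 8.09e-06). Cyclin A2, Ccna2, read 9.16, 9.09 and 8.67 and then 6.63, 6.65 and 7.25, again without overlap, a change of -2.13 ± 0.27 (adjusted p = 7.55e-08). The mitotic kinase Cdk1 read 10.16, 10.44 and 10.24 and then 8.35, 8.92 and 8.52, and its partner Cks2 read 9.12, 10.17 and 9.80 and then 8.02, 8.64 and 7.53. Both pairs of groups were apart, with changes of -1.68 ± 0.21 and -1.63 ± 0.29. Among replication genes, the helicase subunits Gins1 (-1.57 ± 0.15) and Mcm6 (-1.37 ± 0.19) and the origin licensing factor Cdt1 (-1.38 ± 0.17) fell, as did Uhrf1 (-1.76 ± 0.33), which keeps DNA methylation through replication. The spindle checkpoint kinase Bub1b (-1.80 ± 0.20), Cdca3 (-1.75 ± 0.19), the PCNA partner Pclaf (-1.86 ± 0.23), Shcbp1 (-2.23 ± 0.28) and the replication fork protease Fam111a (-1.93 ± 0.27) were among the 15 largest falls. Genes of ribosome assembly, 8 of 19 falling and none rising, had a median of -0.22. The methyltransferase Fbl (-0.72 ± 0.15) led them, and 3 of the 19 fell without day 10 array 3 and 5 without day 3 array 2. Fitted on the 6 arrays alone, none of the 19 was called (limma, 10 falls at an unadjusted p under 0.05), Fbl included (adjusted p = 0.0837).

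**Figure D2:**
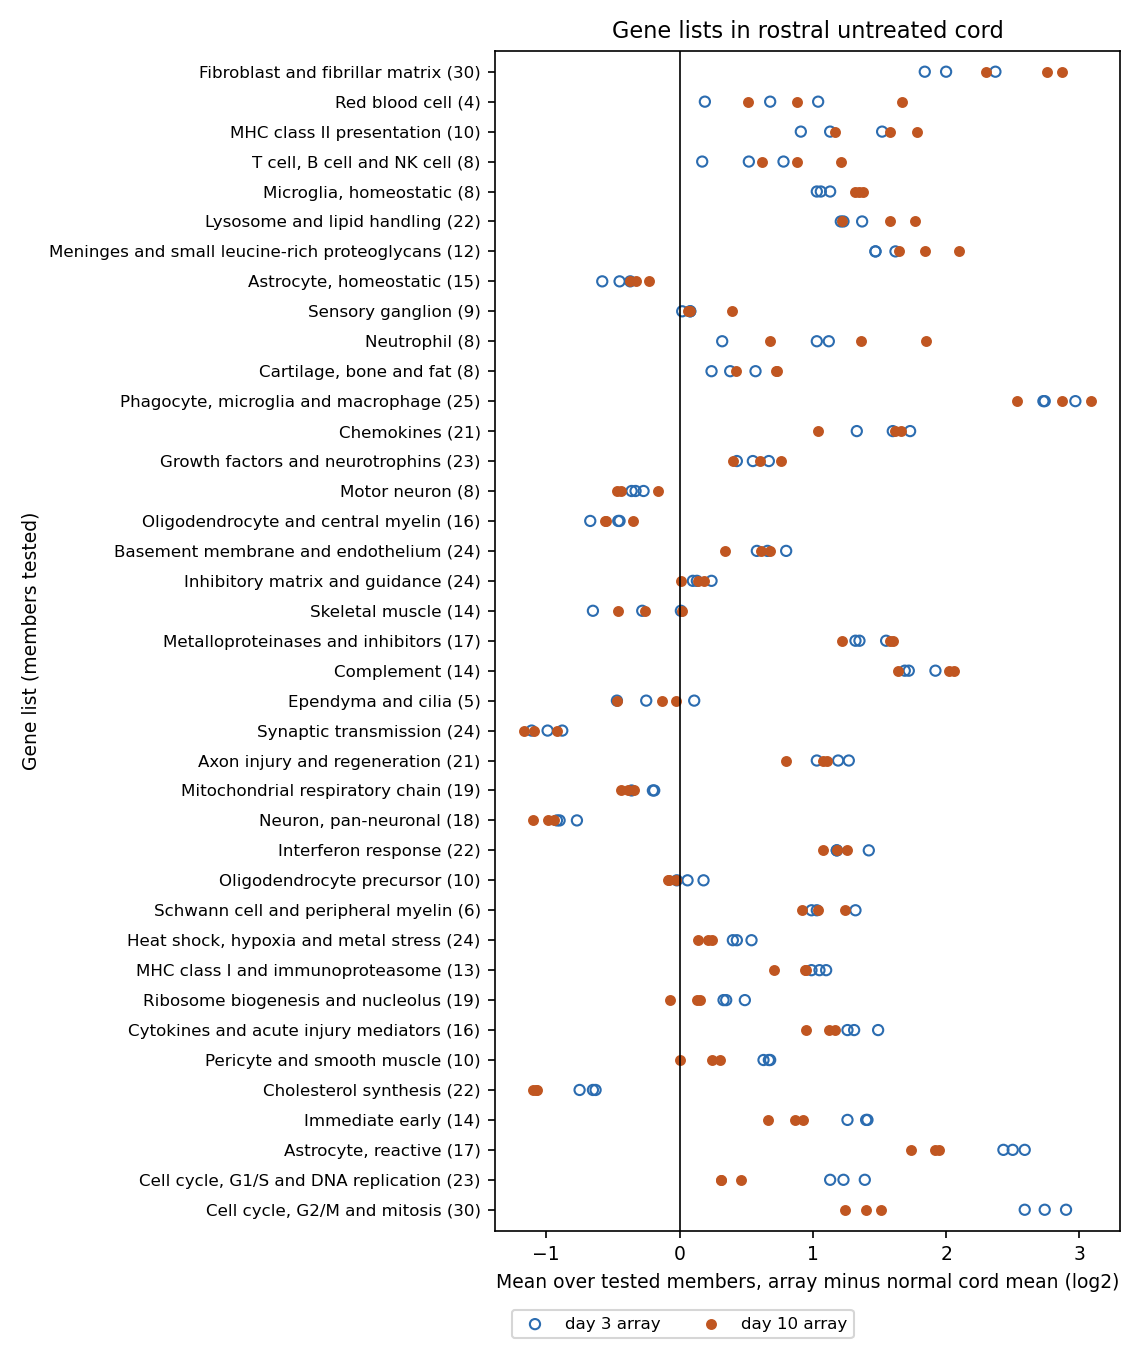
Mean log2 level of the tested members of each of 39 gene lists minus its mean in normal cord, on each of the 3 day 3 arrays (open blue) and 3 day 10 arrays (filled orange), ordered by the median change of the members. Both cell cycle lists separate the days at the falling end (G2 and mitosis 2.59 to 2.90 on day 3 and 1.24 to 1.51 on day 10), and the fibroblast list lies at the rising end (1.84 to 2.37 and 2.30 to 2.87).

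Ccl2 and Ccl7, chemokines that call monocytes, fell while a lymphoid chemokine rose. Ccl2 read 10.07, 10.95 and 10.81 on day 3 and 8.51, 8.64 and 8.32 on day 10, with no overlap and a change of -2.12 ± 0.30 (4.35-fold, adjusted p = 6.77e-07). Its relative Ccl7 read 8.98, 9.57 and 9.25 and then 6.69, 7.03 and 6.58, a change of -2.50 ± 0.29 (adjusted p = 1.23e-08). Ccl2 was still 3.39 above normal cord on day 10 and Ccl7 1.70 above it. Cxcl11, a ligand of the receptor Cxcr3 on activated T cells, fell by 1.65 ± 0.26. Cxcl13, which attracts B cells, read 6.58, 6.88 and 6.43 and then 9.04, 9.26 and 7.77, a rise of 2.06 ± 0.51 (4.17-fold, adjusted p = 0.00326) with all day 10 arrays higher. In the whole list of 21 chemokines 2 rose and 3 fell, beside 4.38% and 10.9% of all genes, and its median was 0.06. The count of rises was 1 without day 10 array 1 or without day 3 array 1, and 6 without day 10 array 3.

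Some acute injury mediators and stress genes fell, though most members of both lists were not called. Heme oxygenase Hmox1, which breaks down heme from bleeding, read 11.69, 11.83 and 11.68 on day 3 and 10.37, 10.53 and 10.16 on day 10. The days did not overlap, and the change was -1.38 ± 0.17 (adjusted p = 7.55e-08), leaving Hmox1 2.40 above normal. The alarmin Il33 (-0.83 ± 0.12) and Socs3 (-0.57 ± 0.13), a brake on cytokine signalling, fell too, and none of 16 genes of this list rose, with 4 falls and a median of -0.27 (1 rise and 5 falls at an unadjusted p under 0.05). The antioxidant enzyme Gpx2 had the largest change of all genes called: it read 11.67, 12.61 and 11.35 and then 9.26, 7.99 and 8.74, a fall of -3.21 ± 0.40 (9.27-fold, adjusted p = 4.6e-08). Its day 10 mean was back within 0.11 of normal cord (-0.11, adjusted p = 0.826). Of 14 immediate early genes 6 fell and none rose, at a median of -0.40, with Maff (-1.62 ± 0.23), Myc (-1.06 ± 0.15) and Fos (-0.99 ± 0.18). Of 24 heat shock, hypoxia and metal stress genes 7 fell and none rose, at a median of -0.17 and beside 10.9% falling among all genes, with the hypoxia targets Ldha (-0.96 ± 0.12) and Adm (-0.90 ± 0.20).

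Most reactive astrocyte genes fell, and the filament Gfap was not called. Of 17 genes of the list 11 fell and 1, the metalloreductase Steap4, rose (0.74 ± 0.25), with a median of -0.61. The means over normal cord were 2.50, 2.59 and 2.43 on day 3 and 1.95, 1.92 and 1.74 on day 10. Gfap read 14.27, 14.07 and 14.20 and then 14.15, 14.14 and 14.19, a difference of -0.02 ± 0.06 (adjusted p = 0.87). Lipocalin Lcn2 read 9.71, 10.50 and 10.81 and then 8.89, 8.56 and 7.88, a fall of -1.90 ± 0.45 (adjusted p = 0.00241). The hyaluronan-binding protein Tnfaip6 read 12.90, 12.65 and 12.70 and then 10.73, 11.00 and 11.30, with a change of -1.74 ± 0.23. In both genes the day 10 arrays all lay below the day 3 arrays. The protease inhibitor Serpina3n changed by -1.31 ± 0.38 (adjusted p = 0.0123), and by -1.16 (adjusted p = 0.0789) without day 3 array 2. Leaving out day 10 array 3 and day 3 array 1 together gave 7 falls in the list, the 6 arrays fitted alone gave 6 falls and no rise, and Steap4 was not called without day 3 array 1 or 3 or day 10 array 1 or 2 (0 rises each).

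Of 15 genes of resting astrocytes 5 rose, 1 fell and 9 were not called, with a median of 0.24. The mitochondrial glutamate carrier Slc25a18 read 7.75 to 8.45 on day 3 and 8.98 to 9.32 on day 10, a rise of 0.92 ± 0.21 (adjusted p = 0.00112) with no overlap, and its day 10 difference from normal cord was -0.90. The water channel Aqp4 rose by 0.50 ± 0.14, and by 0.38 (adjusted p = 0.0926) without day 10 array 3 or 0.45 (adjusted p = 0.0551) without day 3 array 2. The glutamate transporter Slc1a2, the exception, read 8.13, 8.07 and 8.03 and then 7.13, 7.34 and 7.46. Its change was -0.77 ± 0.14 with no overlap. The other Slc1a2 probe set changed by -0.17, from a mean of 6.30 to 6.13, both under the 6.55 cut for dim genes. The list held 2 rises without day 10 array 3, 1 without day 3 array 2 and 1 when the 6 arrays were fitted alone.

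Several of the 15 largest rises were of genes for extracellular proteins, none of them a member of the fibroblast or meningeal lists. Microfibril-associated Mfap4, a glycoprotein of elastic fibres, read 8.18, 8.95 and 8.92 on day 3 and 11.15, 11.08 and 10.62 on day 10. All day 10 arrays were higher, by 2.27 ± 0.34 (4.81-fold, adjusted p = 2.98e-06). The fibril-associated collagen Col14a1 (1.50 ± 0.36), the secreted Wnt modulator Sfrp2 (2.01 ± 0.39), the matricellular protein Ccn3 (1.62 ± 0.26), the matrix protein Hmcn1 (1.49 ± 0.34) and the secreted factors C1qtnf3 (2.08 ± 0.29) and Clec11a (1.73 ± 0.26) were also among the 15 largest rises. So were Shisa3 (2.22 ± 0.54), a membrane protein that restrains Wnt and FGF signalling, the ephrin receptor Epha3 (1.61 ± 0.32) and the retinoic acid hydroxylase Cyp26b1 (1.63 ± 0.26, and 0.84 by its other probe set).

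In the list of 30 fibroblast and fibrillar matrix genes 11 rose and 1 fell, with a median of 0.72 beside -0.05 for all genes. The means over normal cord were 1.84, 2.37 and 2.00 on day 3 and 2.87, 2.76 and 2.30 on day 10, so that the lowest day 10 array, array 3, lay under the highest day 3 array, array 2. In 14 of the 30 every day 10 array lay above every day 3 array, against 8.54% of all genes, and in 2 below. Type I collagen Col1a1 read 10.03, 11.37 and 10.56 and then 12.59, 12.23 and 11.20, a rise of 1.35 ± 0.38 (adjusted p = 0.0101) with overlapping groups. Col1a2 read 11.68, 12.15 and 11.72 and then 13.26, 13.05 and 12.56, a rise of 1.11 ± 0.31 (adjusted p = 0.0101) without overlap. Fibroblast activation protein Fap, a surface protease, rose by 1.31 ± 0.31 (adjusted p = 0.00216). Thrombospondin 2, Thbs2, went the other way, from 10.22, 10.04 and 9.73 to 8.82, 9.05 and 8.78, a change of -1.11 ± 0.21. Decorin Dcn (0.24 ± 0.19) and lumican Lum (0.75 ± 0.28) were not called. Single pools weighed on this list. The rises numbered 3 without day 10 array 1, 5 without day 10 array 2, 4 without day 3 array 1, 6 without day 3 array 3, 7 without day 10 array 3 and day 3 array 1 together, and 7 when the 6 arrays were fitted alone. Col1a1 was not called without day 10 array 1 (1.06, adjusted p = 0.0806) or day 3 array 1 (1.04, adjusted p = 0.0783), nor Col1a2 without day 10 array 1 (0.95, adjusted p = 0.0565).

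Meningeal and proteoglycan genes followed in part, with 4 of 12 rising, 1 falling and a median of 0.25. Insulin-like growth factor 2, Igf2, which the meninges make, read 10.72, 10.43 and 10.76 and then 12.43, 12.14 and 11.77. The days were apart and the rise was 1.48 ± 0.16 (adjusted p = 2.57e-09). Fibromodulin Fmod rose by 0.78 ± 0.15. Since dura and meninges were part of the dissected tissue, their share of each pool was not measured, and its part in these values was not tested.

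Matrix-cutting enzymes moved in both directions. Of 17 metalloproteinases and inhibitors 5 rose and 3 fell, beside 4.38% and 10.9% of all genes, with a median of -0.02. Matrilysin Mmp7 read 5.49, 5.84 and 5.90 and then 8.47, 9.02 and 6.22, a rise of 2.16 ± 0.41 (4.47-fold, adjusted p = 0.000139). Stromelysin Mmp3 read 7.23, 7.35 and 7.49 and then 5.69, 5.93 and 5.78, a change of -1.56 ± 0.35 (adjusted p = 0.00107). Neither gene's groups overlapped, although day 10 array 3 was close to day 3 for Mmp7. Gelatinase A, Mmp2, rose by 0.93 ± 0.24. Neutrophil collagenase Mmp8 read 5.34, 5.85 and 5.59 and then 7.52, 8.17 and 6.93, a rise of 1.95 ± 0.46 (adjusted p = 0.00217), and was the only one of 8 neutrophil genes called. The mean of those 8 over normal cord was 0.32, 1.12 and 1.03 on day 3 and 1.36, 1.85 and 0.68 on day 10, and its part in the Mmp8 value was not tested. The enzyme list held 2 rises without day 10 array 1 or 2, 3 without day 3 array 1 or 3, and no rise and 1 fall when the 6 arrays were fitted alone (limma, 4 each at an unadjusted p under 0.05).

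Phagocyte genes were high on both days, and individual members moved in opposite directions. The means of 25 such genes over normal cord were 2.73, 2.97 and 2.74 on day 3 and 2.87, 3.09 and 2.53 on day 10. Of the 25, 3 rose and 4 fell, beside 4.38% and 10.9% of all genes, with a median of 0.12. Macrophage elastase Mmp12 read 7.71, 8.38 and 7.84 and then 10.36, 11.39 and 8.97, with all day 10 arrays higher and a rise of 2.26 ± 0.64 (4.80-fold, adjusted p = 0.0109). Without day 10 array 2 the value was 1.69 (adjusted p = 0.107). The Fc receptor Fcgr3a read 11.04, 11.20 and 11.12 and then 9.99, 10.01 and 9.76, a change of -1.20 ± 0.15 (adjusted p = 4.13e-08), and arginase Arg1 fell by 1.16 ± 0.26. The pan-macrophage markers Csf1r (0.04 ± 0.11), Aif1 (-0.21 ± 0.19) and Itgam (-0.28 ± 0.15) were not called. Cd68, another such marker, read 10.37, 11.12 and 10.72 and then 11.55, 11.84 and 10.76. Its groups overlapped, and it rose by 0.65 ± 0.23 (limma, adjusted p = 0.0437). Cd68 was not called without day 10 array 1 or 2, without day 3 array 1 or 3, or on the 6 arrays alone. The list held no rise without day 10 array 2 or on the 6 arrays alone and 1 without day 3 array 3, and it held 2 falls without day 10 array 3 or without day 3 array 2.

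Of 22 lysosome and lipid handling genes, many of them active in debris-clearing phagocytes, 9 rose and 3 fell, with a median of 0.32. Apolipoprotein E, Apoe, which carries lipid released from myelin, read 13.74, 13.74 and 13.75 on day 3, the level of normal cord (13.74), and 14.47, 14.47 and 14.32 on day 10, a rise of 0.68 ± 0.07 (adjusted p = 8.24e-10). The cholesterol exporter Abca1 read 10.59, 10.76 and 10.28 and then 11.67, 11.90 and 11.63, a rise of 1.19 ± 0.14, and cathepsin K, Ctsk, rose by 1.40 ± 0.30. Days were apart for all 3. The fatty acid carrier Fabp5 was an exception, with a change of -0.71 ± 0.14. On the 6 arrays alone the list gave 3 rises and 1 fall.

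Cholesterol synthesis genes fell further below normal between the days. Of 22 genes 13 fell, beside 10.9% of all genes, and none rose. Their median was -0.39 (limma, 15 falls and no rise at an unadjusted p under 0.05). Their mean relative to normal cord was -0.65, -0.75 and -0.63 on day 3 and -1.07, -1.10 and -1.08 on day 10. Squalene epoxidase Sqle read 11.02, 10.86 and 10.95 and then 9.99, 9.97 and 10.12, a fall of -0.92 ± 0.11 (adjusted p = 2.84e-08). Cyp51 (-0.92 ± 0.13), Idi1 (-0.81 ± 0.14) and the fatty acid desaturase Scd (-0.66 ± 0.15) fell as well, and in Sqle no day 10 array reached a day 3 array. Central myelin genes did not share this fall. Of 16, 3 rose and 2 fell, beside 4.38% and 10.9% of all genes, at a median of 0.01. Mbp (-0.02 ± 0.05), Mag (-0.09 ± 0.13) and Mog (0.02 ± 0.12) were not called. The myelin rises were 0 without day 10 array 3 or day 3 array 2 or on the 6 arrays alone, and 1 gene fell when any array was left out.

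Most complement, antigen presentation and lymphocyte genes were not called. Among all genes 4.38% rose and 10.9% fell. Of 14 complement genes 3 rose, of 8 lymphocyte genes 2 rose and of 10 class II genes 2 fell. The central complement component C3 read 9.50, 9.35 and 9.42 and then 11.14, 11.26 and 10.78, a rise of 1.64 ± 0.22 (3.11-fold, adjusted p = 3.48e-07) from a day 3 level that was not called different from normal cord (-0.38). The protease C1s (0.62 ± 0.16) and adipsin Cfd (1.17 ± 0.26) made up the other rises among 14 complement genes, whose median was -0.05, and 5 rose without day 10 array 3. The class II peptide exchange genes RT1-DMa (-0.71 ± 0.12) and RT1-DMb (-0.50 ± 0.11) fell, and none of the 10 class II presentation genes rose, although 5 rose at an unadjusted p under 0.05 and 3 were called without day 10 array 3. No call was made among 13 class I genes or 22 interferon response genes (limma, with 1 rise and 4 falls, and 1 rise and 2 falls, at an unadjusted p under 0.05). Leaving out day 10 array 1, day 10 array 2 or day 3 array 1 gave 2 class I falls each, and leaving out day 10 array 3 or day 3 array 2 gave 1 interferon rise each, while the 6 arrays alone gave 1 interferon fall. The class I probe sets of RT1-CE10 and RT1-CE12, which may read near-identical relatives, differed by 0.05 ± 0.25 and 0.08 ± 0.13. The T-cell co-receptor gene Cd8b rose by 1.02 ± 0.23 (adjusted p = 0.00137) and Cd4, which rat macrophages also carry, by 0.65 ± 0.14, 2 of 8 lymphocyte genes, and neither was called on the 6 arrays alone.

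Neuronal genes lay below normal on both days and gave few calls between them. The means of 18 pan-neuronal genes over normal cord were -0.90, -0.92 and -0.77 on day 3 and -0.99, -1.10 and -0.94 on day 10, with 1 fall, no rise and a median of -0.11 (3 falls at an unadjusted p under 0.05). That fall was the growth cone protein Gap43 (-0.33 ± 0.11, adjusted p = 0.029), which was not called without day 10 array 3 (-0.26, adjusted p = 0.158), day 10 array 1 (-0.33, adjusted p = 0.0595), day 3 array 2 (-0.34, adjusted p = 0.0633) or day 3 array 3 (-0.28, adjusted p = 0.122). None of 24 synaptic genes was called (limma, 1 rise and 1 fall at an unadjusted p under 0.05), and their means were -0.99, -1.11 and -0.88 and then -1.09, -1.17 and -0.92. The neuronal nuclear protein Rbfox3 read 8.63, 8.59 and 8.97 and then 8.93, 8.63 and 8.44 against 10.40 ± 0.40 in normal cord. Of 21 axon injury and regeneration genes 7 fell and 2 rose, beside 10.9% and 4.38% of all genes, at a median of -0.09. The tubulin Tubb6 fell by 0.89 ± 0.15 and the small heat shock protein Hspb1 by 1.03 ± 0.20, while the adhesion protein Flrt3 rose by 0.64 ± 0.12. The falls numbered 4 without day 10 array 3 and 2 on the 6 arrays alone.

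Some genes of vessel walls and of growth signals changed, though most members of these lists were not called. Transgelin Tagln, an actin-binding protein of smooth muscle that other contractile cells also make, read 11.82, 12.04 and 11.66 and then 9.99, 10.03 and 9.66. The groups lay far apart, with a fall of -1.95 ± 0.18 (3.85-fold, adjusted p = 1.94e-10). Smooth muscle actin Acta2 fell by 0.74 ± 0.14. Of 10 pericyte and smooth muscle genes 3 fell, beside 10.9% of all genes, at a median of -0.36. The vascular peptide Apln read 10.56, 10.37 and 10.15 and then 8.81, 8.95 and 8.69, a change of -1.54 ± 0.20 (adjusted p = 1.39e-07) and its difference from normal cord was 0.29 on day 3 and -1.25 on day 10. Von Willebrand factor Vwf fell by 1.08 ± 0.22, and 3 of 24 basement membrane and endothelial genes fell, beside 10.9% of all genes. None of the 24 rose (limma, 3 rises and 6 falls at an unadjusted p under 0.05). The endothelial markers Pecam1 (-0.27 ± 0.14) and Cldn5 (-0.43 ± 0.18) were not called. Among 23 growth factor genes 4 rose and 2 fell, beside 4.38% and 10.9% of all genes, at a median of 0.04. None of the 23 rose on the 6 arrays alone. Insulin-like growth factor 1, Igf1, read 10.66, 11.42 and 11.42 and then 12.41, 12.19 and 11.55, a rise of 0.88 ± 0.22 (adjusted p = 0.00401), or 0.63 (adjusted p = 0.061) without day 3 array 1. Its carrier Igfbp3 read 11.92, 12.30 and 12.12 and then 11.09, 10.50 and 10.00, a change of -1.58 ± 0.23. The BMP family ligand Gdf10 rose by 1.26 ± 0.32, or 0.96 (adjusted p = 0.0542) without day 10 array 1, and the EGF receptor ligand Hbegf fell by 1.12 ± 0.15. The thyroid hormone-binding protein Crym, in none of these lists, read 10.24, 10.20 and 10.09 and then 7.71, 7.88 and 7.86, a change of -2.36 ± 0.23 (5.13-fold, adjusted p = 6.04e-10), and the calcium-binding S100a3 fell by 1.76 ± 0.24.

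The other sampled days place this interval in the course of the untreated lesion (3 arrays a day, means given as a description). Mki67 stood at 7.04 on day 1, 9.94 on day 3 and 7.93 on day 10, and then at 7.89, 7.22, 6.43 and 6.25 on days 20, 30, 60 and 90, against 5.63 in normal cord. Ccl2 and Lcn2 were highest on day 1, at 11.73 and 12.06, and lower on each of days 3 and 10. Tagln was near normal (9.31) on day 1 at 9.51, reached 11.84 on day 3 and was 9.89 on day 10. Mfap4 stood at 10.95 on day 10 and lower on each later day, at 10.79, 10.60, 10.23 and 9.99. Col1a1 was 12.01 on day 10, 11.33 and 11.41 on days 20 and 30, and 9.93 and 9.42 on days 60 and 90. C3 stood at 11.06 on day 10 and 10.99 on day 20, and by days 60 and 90, at 9.83 and 9.67, was near normal cord (9.80), whereas Igf2 was 12.24 on day 90 against 10.33 in normal cord. Cxcl13 went from 9.15 on day 1 to 6.63 on day 3 and 8.69 on day 10, so day 3 was its lowest sampled day after injury.

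**Figure D3:**
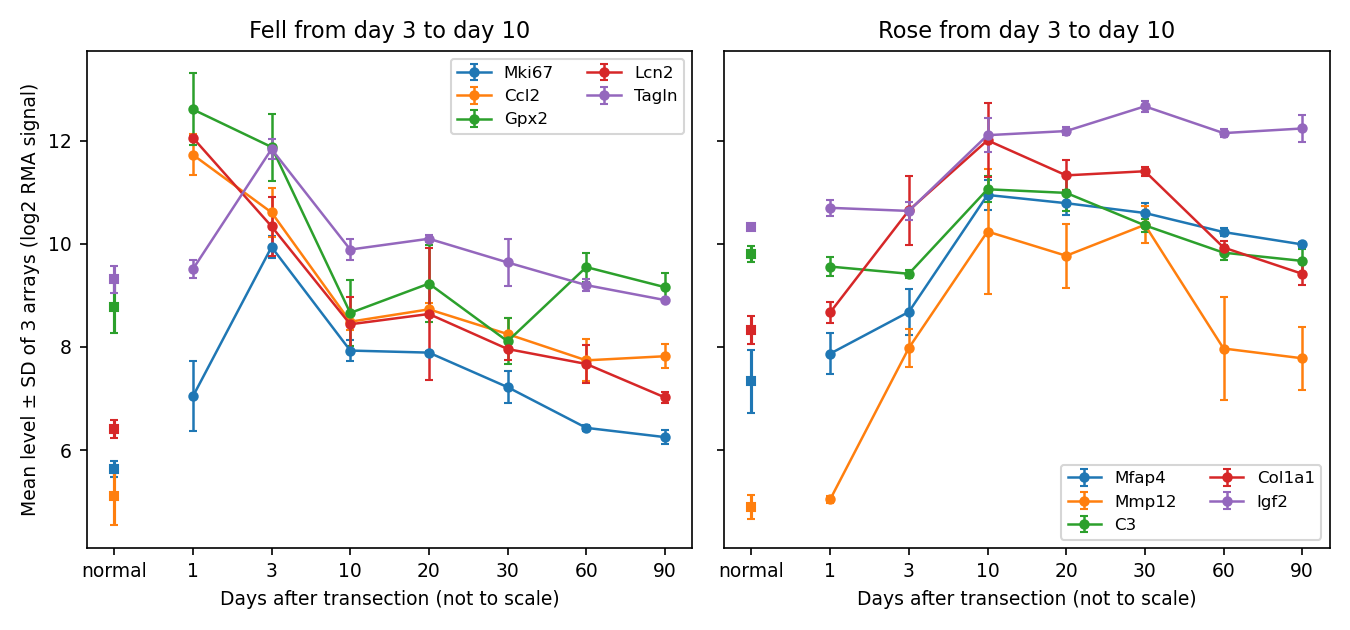
Mean ± SD (3 arrays) of log2 intensity in normal cord and in the rostral segment of untreated rats on days 1, 3, 10, 20, 30, 60 and 90 (days evenly spaced, not to scale), for 5 genes that fell (left) and 5 that rose (right) between days 3 and 10. Mki67 has its highest mean, 9.94, on day 3, and Mfap4 its highest, 10.95, on day 10.

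The same days in the caudal segment of the same treatment show where the rostral change differed. Of 11590 genes tested, the change from day 3 to day 10 differed between the segments in 577 (4.98%): 239 more positive rostral (2.06%) and 338 more negative (2.92%), with a median difference of -0.01 over all genes. Matrix genes and neuronal genes divided the segments, while cell division genes gave no call. The counts rested on single pools: 81 without caudal day 3 array 1, 146, 159 and 973 without rostral day 10 arrays 2, 1 and 3, 159 and 236 without rostral day 3 arrays 1 and 3, and 177 and 364 without caudal day 10 arrays 1 and 2.

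The fibroblast and matrix genes that changed mostly rose in the rostral segment and fell in the caudal one. Of the 30, 11 rose and 1 fell rostrally (median 0.72), beside 4.38% and 10.9% of all genes. Caudally none rose and 16 fell (median -0.76), beside 14.3% and 21.5% of all genes. The difference was called in 17, each more positive rostral (median 1.41), beside 2.06% of all genes. Mfap4 stood at 8.68 ± 0.44 and 10.95 ± 0.29 rostrally on days 3 and 10 and at 9.49 ± 0.09 and 9.41 ± 0.26 caudally, a difference of changes of 2.35 ± 0.55 (adjusted p = 0.0107). Shisa3 went from 6.76 ± 0.67 to 8.99 ± 0.39 rostrally and from 8.58 ± 0.39 to 7.52 ± 0.38 caudally, a difference of 3.28 ± 0.76 (adjusted p = 0.0106). The tetraspanin Upk1b went from 7.27 ± 0.53 to 8.12 ± 0.38 and from 8.31 ± 0.07 to 6.63 ± 0.38 (2.52 ± 0.56, adjusted p = 0.00987). For all 3 genes the caudal level was the higher on day 3 and the rostral level the higher on day 10, and none lost its call when any 1 of the 12 arrays was left out. Col8a1, a short-chain collagen, went from 8.47 ± 0.48 to 9.56 ± 0.38 and from 9.53 ± 0.43 to 8.07 ± 0.38 (2.55 ± 0.61, adjusted p = 0.0118). The differences called in the list numbered 2 without caudal day 3 array 1, 4 without rostral day 10 array 1 or 2, 3 and 7 without rostral day 3 arrays 1 and 3, and 8 without caudal day 10 array 2, with medians from 1.23 to 1.63 throughout.

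Neuronal genes rose caudally, and hardly any was called rostrally. Of 24 synaptic genes 16 rose and none fell caudally (median 0.63), beside 14.3% rising and 21.5% falling among all genes. None was called rostrally (median -0.08), where 4.38% of all genes rose and 10.9% fell. The difference was called in 12, each more negative rostral (median -0.72), beside 2.92% of all genes. Of 18 pan-neuronal genes 12 rose caudally (median 0.42) and the difference was called in 8 (median -0.59). The neuropeptide gene Cartpt stood at 8.92 ± 0.54 and 8.61 ± 0.13 rostrally and at 8.62 ± 0.36 and 9.67 ± 0.30 caudally, a difference of -1.37 ± 0.34 (adjusted p = 0.0136). The stress peptide gene Crh (-1.36 ± 0.42) and the signalling regulator Rgs17 (-1.40 ± 0.39) lay the same way, though Crh kept its call in 2 and Rgs17 in 6 of the 12 fits with 1 array left out. Without caudal day 3 array 1 the synaptic differences numbered 2 and the pan-neuronal 1. The synaptic count was 5, 2, 7, 3 and 3 without rostral day 10 array 1, rostral day 10 array 2, rostral day 3 array 1, rostral day 3 array 3 and caudal day 10 array 1, and the pan-neuronal count 2, 1, 2, 2 and 1. Without caudal day 10 array 2 or caudal day 3 array 2 the pan-neuronal count was 3.

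Cell division genes fell on both sides of the gap. All 30 mitotic genes fell caudally (median -1.70), beside 21.5% of all genes, and 29 rostrally (median -1.32), beside 10.9%. No difference was called (limma, with 5 more positive rostral at an unadjusted p under 0.05), and the median difference was 0.43. In simulated data this test recovered 24% of differences of 0.5. C3 rose on both sides, by 1.64 ± 0.22 and 2.28, and Cxcl13 by 2.06 ± 0.51 and 3.65. Apln fell more rostrally than caudally (-1.54 against -0.56, adjusted p of the difference = 0.0235), while Ctsk rose rostrally and read -0.22 caudally (adjusted p of the difference = 0.0167).

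**Figure D4:**
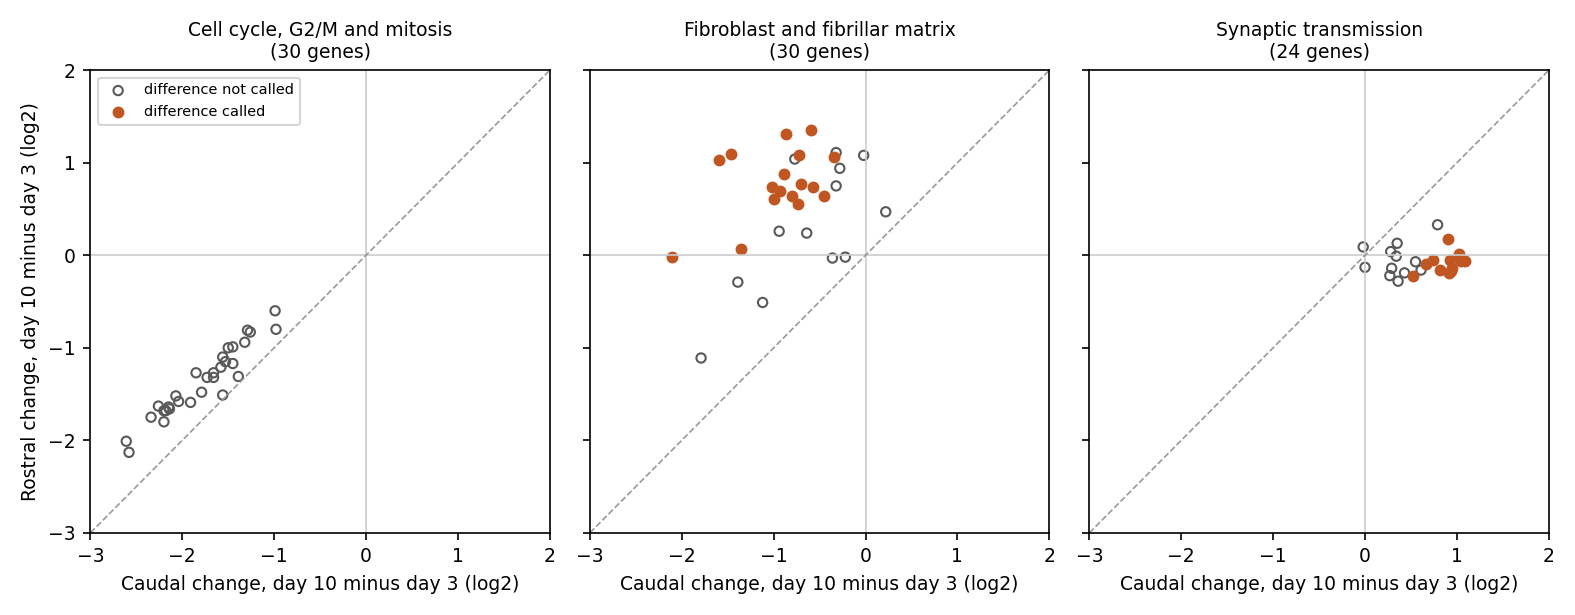
Change from day 3 to day 10 (log2) in the rostral segment against the same in the caudal segment for 30 G2 and mitosis, 30 fibroblast and matrix and 24 synaptic genes, with filled points where the difference of changes was called and a dashed line of equal change. Mitotic genes lie below 0 on both axes with no filled point, 17 matrix points are filled on the rostral side of the line, and 12 synaptic points are filled on the caudal side.

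The rostral change was also set against that of rats that had a tube in the gap. The day 10 minus day 3 change differed from that of NT-3 tube rats in 97 genes (0.840%), 58 more positive in untreated rats (0.502%) and 39 more negative (0.338%). Hspa1a, an inducible heat shock chaperone, stood at 8.14 ± 0.21 and 7.55 ± 0.09 in untreated rats and at 10.52 ± 1.28 and 7.42 ± 0.20 in NT-3 tube rats, a difference of changes of 2.51 ± 0.58 (adjusted p = 0.0284). The endoplasmic reticulum stress gene Creld2 stood at 9.89 ± 0.21 and 9.45 ± 0.29 and at 11.12 ± 0.69 and 9.40 ± 0.15 (1.28 ± 0.25, adjusted p = 0.0146). In both the arms parted on day 3, with a wide spread among the NT-3 arrays, and met on day 10. The interferon-induced GTPases Mx1 and Mx2 gave differences of -1.59 ± 0.39 and -1.59 ± 0.31, Mx2 at 7.63 ± 0.15 and 7.45 ± 0.28 in untreated rats and at 6.58 ± 0.26 and 7.98 ± 0.30 in NT-3 tube rats. Without NT-3 day 3 array 1, no gene was called (limma, 1167 at an unadjusted p under 0.05), Hspa1a reading 1.77 (adjusted p = 0.188), Creld2 0.88 (adjusted p = 0.0924) and Mx2 -1.50 (adjusted p = 0.0802). Other single arrays moved the count to 1, 16 and 736 (untreated day 10 arrays 1, 2 and 3), 27, 149 and 16 (untreated day 3 arrays 1, 2 and 3), 24 and 340 (NT-3 day 10 arrays 1 and 2) and 794 (NT-3 day 3 array 2). The class I gene RT1-CE10 varied in the NT-3 arm, at 8.14 ± 0.98 on day 3, against 7.02 ± 0.16 in untreated rats, and whether this bears on the calls was not tested.

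Against the empty tube, 10 genes differed (0.0866%), 4 more positive in untreated rats (0.0346%) and 6 more negative (0.0519%). Cxcl13 stood at 6.63 ± 0.23 and 8.69 ± 0.80 in untreated rats and at 9.67 ± 1.92 and 7.61 ± 0.50 (n = 2 on day 10) in empty tube rats, a difference of 4.13 ± 0.76 (adjusted p = 0.0119). The acute phase gene Saa3 was near normal cord (5.63) in untreated rats on both days, at 5.79 ± 0.25 and 5.74 ± 0.03, and stood at 9.15 ± 2.32 and 5.63 ± 0.06 in empty tube rats (3.47 ± 0.76, adjusted p = 0.044). Hmox1 fell in both arms, from 11.73 ± 0.08 to 10.35 ± 0.19 and from 12.90 ± 0.06 to 10.17 ± 0.10 (1.35 ± 0.26, adjusted p = 0.0166). Nmnat1, which makes nuclear NAD, was level in untreated rats at 9.06 ± 0.21 and 9.06 ± 0.03 and went from 8.21 ± 0.06 to 9.06 ± 0.01 in empty tube rats (-0.86 ± 0.16, adjusted p = 0.0119). None of the 10 was called without empty tube day 3 array 2 or untreated day 10 array 2 (limma, 1135 and 1189 at an unadjusted p under 0.05), where Cxcl13 read 3.28 (adjusted p = 0.0605) and 3.84 (adjusted p = 0.0506). The count was 4 and 16 without untreated day 3 arrays 1 and 2, 114 and 1 without empty tube day 10 arrays 1 and 2, and 34 without empty tube day 3 array 1.

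**Figure D5:**
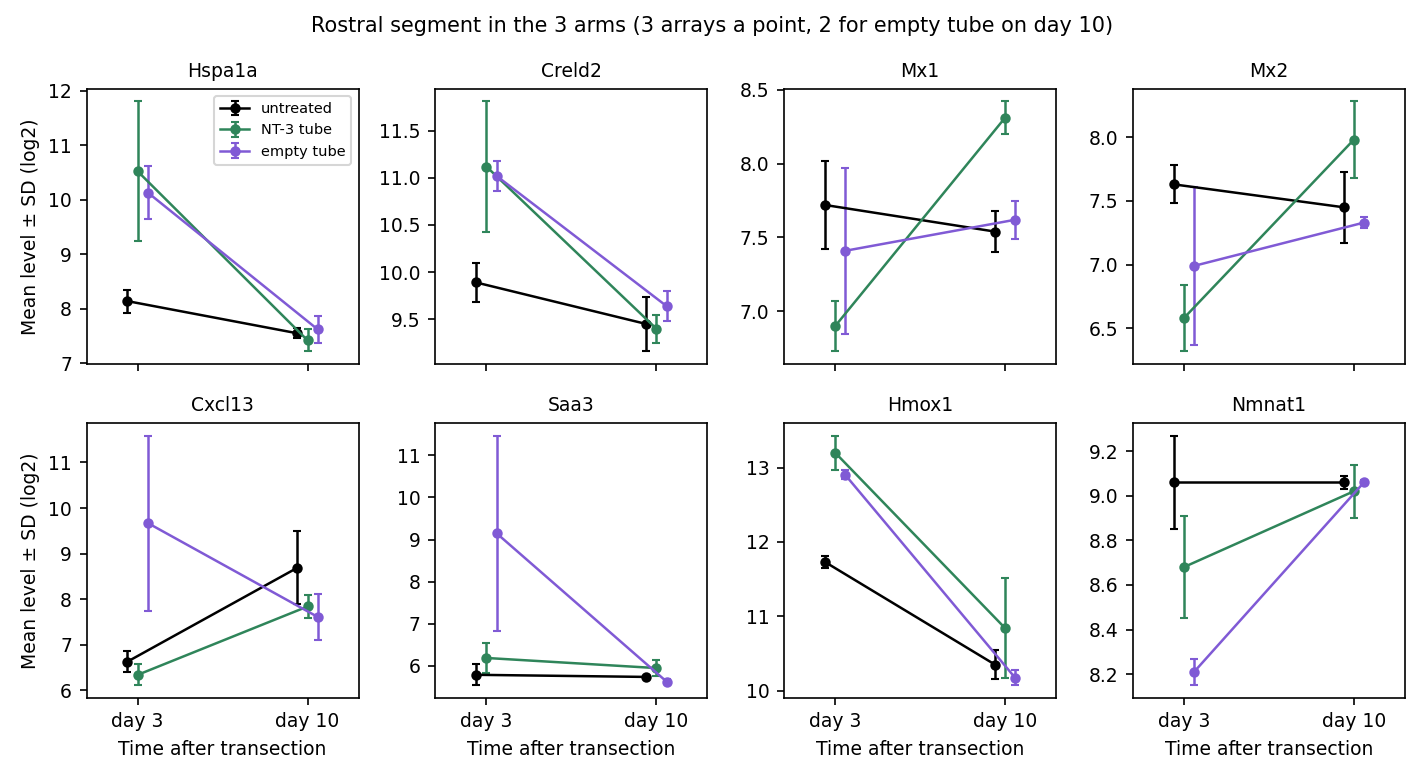
Mean ± SD of log2 intensity on days 3 and 10 in the rostral segment of untreated, NT-3 tube and empty tube rats (3 arrays each, 2 for the empty tube on day 10) for 8 genes. On day 3 Saa3 is 5.79 in untreated and 9.15 in empty tube rats. Hspa1a on that day is 8.14 in untreated and 10.52 in NT-3 tube rats. Mx1 changes order, at 7.72 in untreated and 6.90 in NT-3 tube rats on day 3 and 7.54 and 8.31 on day 10.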

How the data were processed

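RNA from rat cord was hybridised to 1-colour Affymetrix Rat Genome 230 2.0 arrays. The deposited values are log2 intensities that the authors made with Affymetrix Expression Console and RMA, per the submitters' processing notes (versions not given in the sources used here). RMA quantile-normalizes arrays, so that changes are relative to the other genes. Of 31099 probe sets, 20832 had 1 gene symbol in the platform annotation, 436 several and 9831 none. Genes (14218) were read by the probe set with the highest mean, and kept if a group mean reached 6.55, the 40th percentile.

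limma (3.58.1, R 4.3.3) was fitted with 1 mean per arm and day to 65 rostral and normal arrays, or 128 with caudal ones, with Benjamini-Hochberg adjustment over all genes and a threshold of 0.05. Errors in the text are SDs over arrays for levels and SEs from the fit for changes. The number of arrays limits precision. In data simulated for the day 10 minus day 3 comparison over 11553 genes, 61.5% of changes of 0.5 and 96% of changes of 1 were recovered. For the differences from the caudal segment, NT-3 tube and empty tube, recovery was 24%, 21.5% and 21% at 0.5 and 86%, 85.5% and 77.5% at 1. The simulated noise was independent between genes, so deviations shared by many genes of an array were not in it.

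The comparison, gene lists and tests were chosen with earlier results of these data known. Named genes are the 15 largest rises and falls with groups apart, the 4 largest calls in each list, or where fewer than 2 were called up to 2 more members, defining markers, RT1-CE10 and RT1-CE12, and the 5 largest differences in each direction; Aurkb, Cdk1, Cks2 and Steap4 were named after their values were seen. Alternatives covered the filter, a further normalization, the prior, array weights, fewer arrays, a replicate block, probe set averaging and left-out arrays.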

Additional observations from a re-analysis of the deposited data

Results flagged for a closer look

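The change from day 3 to day 10 in the untreated rostral segment was tested against the change in 3 other groups, and each result below was called in such a test (limma, adjusted p under 0.05). The difference from the caudal segment was called in 577 genes, from the NT-3 tube in 97 and from the empty tube in 10.

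Against the caudal segment, the difference of changes was positive for Shisa3 (3.28), the proteoglycan Aspn (2.63), Col8a1 (2.55), Upk1b (2.52) and Mfap4 (2.35). It was negative for Rgs17 (-1.40), Cartpt (-1.37), Crh (-1.36), Pcp4l1 (-1.18) and Nol4 (-1.16). With each of 12 arrays left out in turn, Shisa3, Upk1b and Mfap4 lost no call, Nol4 lost 1, Col8a1 and Cartpt 2, Pcp4l1 4, Rgs17 6, and Aspn and Crh 10.

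Against the NT-3 tube, the difference was positive for Hspa1a (2.51), Creld2 (1.28), the potassium channel subunit Kcne4 (1.26), Zfand2a (1.16) and cholesterol 25-hydroxylase Ch25h (1.14). It was negative for Mx2 (-1.59), Mx1 (-1.59), the antiviral helicase Ddx60 (-1.54), Arpp21 (-1.31) and the motor neuron gene Chodl (-1.30). Every one of these 10 lost its call in 2 or more of 12 fits with 1 array left out, and all lost it without NT-3 day 3 array 1.

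Against the empty tube, the difference was positive for Cxcl13 (4.13), Saa3 (3.47), Hmox1 (1.35) and glucosylceramide synthase Ugcg (0.69). It was negative for Lratd1 (-0.97), the sulfotransferase Chst2 (-0.93), Nmnat1 (-0.86), mitochondrial glycerol phosphate dehydrogenase Gpd2 (-0.69) and Mccc2 (-0.65). Each of these 9 lost its call in 3 or more of 11 such fits, and all lost it without empty tube day 3 array 2.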

How the results depend on the processing

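With each of the 6 arrays left out in turn, 330 to 499 genes rose and 703 to 1354 fell. Fitted on the 6 arrays alone, limma called 142 rises and 368 falls, and with array weights 1648 and 2592. Of the 506 rises and 1263 falls reported, 66 and 120 were at 2-fold or more. Without day 10 array 3 and day 3 array 1 together, an alternative chosen after seeing the data, 403 rose and 632 fell. Replicate numbers did not pair the days: deviations of same-numbered arrays correlated at -0.529, 0.436 and -0.255, and a replicate block on the 6 arrays gave 45 rises and 125 falls. For the 577 differences from the caudal segment, array weights gave 2778, the replicate block 217 and left-out arrays 81 to 973. For the 97 from the NT-3 tube, weights gave 1180, omission of those arrays together 236, the 12 arrays of the 4 groups alone 0 (714 at an unadjusted p under 0.05), the replicate block 0 (609) and left-out arrays 0 to 794. For the 10 from the empty tube, weights gave 692, the further normalization 4, the trended prior 17, probe set averages 27, the 4 groups alone 1, omission of those arrays together 6, the replicate block 0 (869) and left-out arrays 0 to 114. The cause was not tested. Counts under the remaining settings lay within 1.5 times those reported. Of 110 named genes called between days 3 and 10, 36 lost the call on the 6 arrays alone, 65 with the block, 5 after the further normalization, 3 with probe set averages, 1 without the filter, 9 to 17 with an array left out, and none reversed. Dim genes and single pools limit the rest.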

Other observations

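Some gene groups were not described above. Among 24 inhibitory matrix and axon guidance genes, 1 rose and 1 fell between days 3 and 10, beside 4.38% and 10.9% of all genes. The rise, of the guidance ligand Slit2 (0.40), was not called without day 10 array 1 (0.31, adjusted p = 0.0988), day 3 array 1 (0.35, adjusted p = 0.0582) or day 3 array 2 (0.39, adjusted p = 0.0521), and 2 genes rose without day 10 array 3. The one that fell was neurocan, Ncan, a chondroitin sulfate proteoglycan that restrains axon growth, which read 8.58, 8.45 and 7.98 on day 3 and 6.90, 6.91 and 7.71 on day 10 (-1.16 ± 0.25, adjusted p = 0.000568). All day 10 arrays were lower, and in normal cord the mean was 5.88. Of 10 oligodendrocyte precursor genes, the transcription factor Nkx2-2 fell (-0.63 ± 0.14, adjusted p = 0.00153), with 9.92, 9.99 and 9.87 on day 3 and 9.35, 9.37 and 9.18 on day 10. Of 19 respiratory chain genes 3 fell and none rose, Uqcrc1 by 0.33 ± 0.09, beside 10.9% falling among all genes, and on the 6 arrays alone none was called (limma, 4 falls at an unadjusted p under 0.05, and adjusted p = 0.0846 for Uqcrc1). Their mean lay under normal cord on all 6 arrays, between -0.19 and -0.44. The resting microglia gene Tmem119 rose by 0.64 ± 0.15 (adjusted p = 0.00232), 1 of 8 genes of that list, and was not called without day 10 array 3 and day 3 array 1 together (0.50, adjusted p = 0.0823). No call was made among 8 motor neuron, 9 sensory ganglion, 6 Schwann cell or 5 ependymal genes (limma, with 1, 2, 0 and 0 falls at an unadjusted p under 0.05).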
